A study of Homo sapiens with 8 samples.

Results

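Small nucleolar RNAs (snoRNAs) are guide RNAs that direct chemical modification of ribosomal and spliceosomal RNA, and most human snoRNAs are cut out of the introns of longer host transcripts. The transcripts described here are the hosts that carry a symbol of the form SNHG plus a number (small nucleolar RNA host gene), together with GAS5, ZFAS1, EPB41L4A-AS1, DANCR, TAF1D and CCAR1, where the deposited value was above 0 in at least 1 of 8 libraries. Of 60240 genes listed, 34 names matched and 32 had a value above 0, among 31387 genes above 0 in all. The members, chosen by name and by a value above 0, comprise 26 SNHG transcripts and the 6 others. Just inside that limit lay SNHG22, at 10.8 and 0 in combination libraries, 4.05 and 6.24 in decitabine libraries, 0 and 3.18 in RG3039 libraries, and 4.54 and 4.53 in DMSO libraries. SNHG27, the other member with a mean value under 10, reached 16.3 in 1 decitabine library and stood at 0.611 and 0 in DMSO libraries. SNHG18 and SNHG28, just outside it, were listed at 0 in every library. The remaining 30 members had a mean value of at least 10 and were tested.

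Once the introns that carry the snoRNAs have been removed, the spliced exons of many hosts hold only short open reading frames. Translation of such a frame ends ahead of an exon junction, which marks the spliced RNA for nonsense-mediated decay (NMD), a pathway in which the helicase UPF1 and the SMG and UPF proteins recognise premature stops. GAS5, SNHG1, SNHG12, ZFAS1 and others are therefore known to accumulate when translation or NMD is blocked, while their snoRNAs are protected inside ribonucleoprotein particles. Many hosts also begin with a 5′ terminal oligopyrimidine (TOP) tract, the run of C and T that heads ribosomal protein mRNAs and ties their use to growth signals.

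HL-60 is a human promyelocytic leukaemia line, here wild type, and all cells were taken at 72 h. The 4 groups of 2 libraries were the combination (decitabine plus RG3039), decitabine alone, RG3039 alone and DMSO, the solvent. Decitabine was given at 100 nM once a day, first on day 0 and last on day 2, and RG3039 at 2 µM on day 0 only; the combination received both schedules. Decitabine, an analogue of deoxycytidine, enters DNA during replication and traps DNA methyltransferases there. RG3039 inhibits DCPS, the scavenger enzyme that hydrolyses the cap left over after decay of an mRNA from its 3′ end, and the design addresses how RNA levels differ between treatments. The cells came from duplicate wells, so p-values measure the spread between wells, which may be technical.

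Each library counted tags near the 3′ ends of polyadenylated RNA. The deposited values are read counts scaled between libraries (normalised values), with an estimated depth of 20711798 to 40948112 reads per library. Whether an adjustment for transcript length entered them could not be determined. Levels are therefore compared within a transcript, and ranks by mean value and sums over hosts only describe the deposited values. Correlations across genes were 0.952 to 0.957 between libraries of one group and 0.890 to 0.954 between libraries of different groups. All 8 promyelocyte markers (MPO, ELANE, AZU1, PRTN3, CTSG, CD33, CEBPE and MYB) were above 0 in every library, and their summed value was 103228 and 116825 in combination libraries, 172081 and 215097 in decitabine libraries, 117958 and 135891 in RG3039 libraries, and 169498 and 207563 in DMSO libraries. MPO makes up most of that sum, and in the combination against DMSO 3 of the 8 were called lower (MPO, PRTN3 and CTSG) and 2 higher (CEBPE and MYB). Of 10 genes listed as markers of other cell types, MS4A1 (B cells) and CDH5 (endothelium) were at 0 in every library. The sum of these 10 was 3989 and 4186 in combination libraries, 1156 and 1321 in decitabine libraries, 2241 and 2272 in RG3039 libraries, and 1108 and 873 in DMSO libraries, mostly PECAM1 and KRT8. That sum cannot tell the presence of other cells from expression of PECAM1 and KRT8 by the HL-60 cells. The part of these marker levels in the results below was not tested.

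Host transcripts were mostly lower in combination-treated cells than in DMSO cells. Of the 30 tested, 15 fell and 2 rose (SNHG9 and SNHG25) at an adjusted p under 0.05 (limma, Benjamini-Hochberg adjustment over all genes tested), which together is 17 of 30 beside 24.1% of the 17534 genes tested. In single directions, 12.7% of all genes were called lower and 11.4% higher. The median log2 fold change was -0.73 over the 30 hosts and 0.04 over all genes tested. Of the 30 hosts 24 were below 0, beside 47.7% of all genes tested. In 20 hosts both combination values lay under both DMSO values (30.6% of all genes tested), and in 5 both lay over them (32.2% of all genes). Because RNA was taken from whole cultures, fewer cells of a type and less RNA per cell cannot be told apart. The count of 17 became 10 without the first or without the second combination library, 11 without the first DMSO library, and 10 with a variance prior that ignored expression level; 6 calls (DANCR, SNHG7, SNHG12, SNHG17, TAF1D and SNHG9) were made without each of the 8 libraries in turn.

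**Figure D1:**
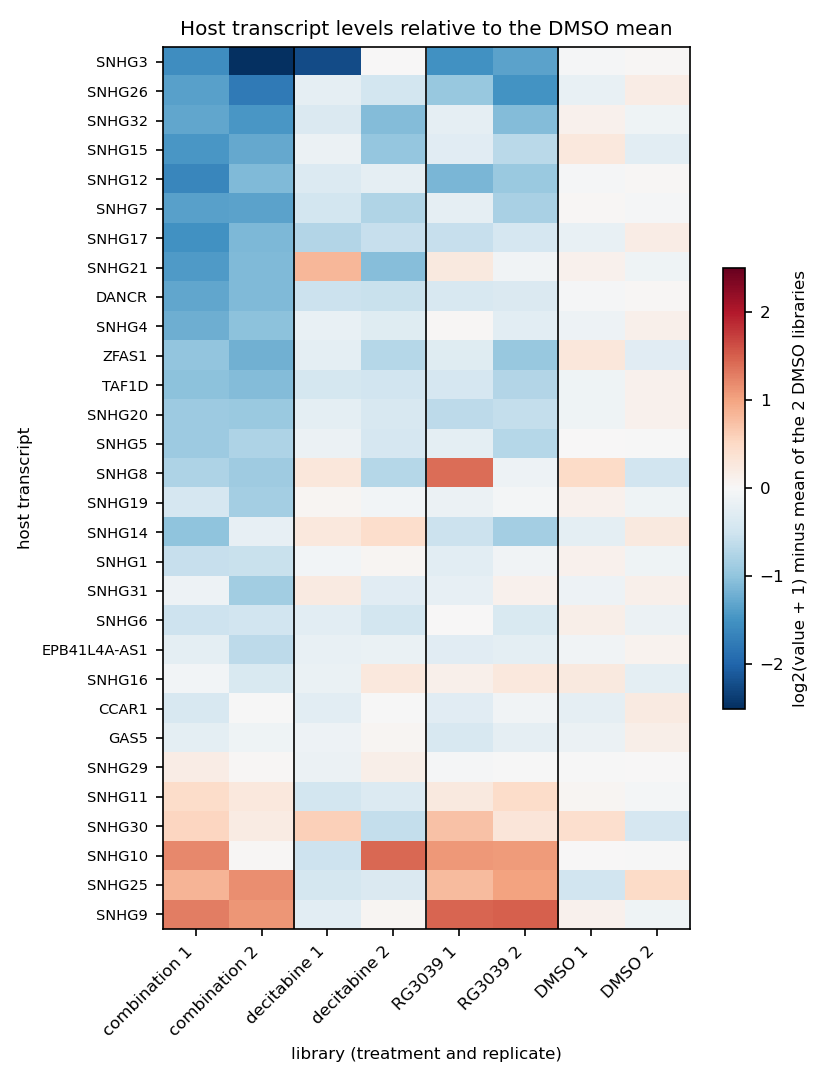
Level of each of the 30 tested host transcripts (rows) in each of the 8 libraries (columns), as log2(value + 1) minus the mean of the 2 DMSO libraries; blue is lower and red higher, and rows are ordered by the combination versus DMSO fold change. Most rows are blue in both combination columns, while SNHG9 and SNHG25 are red in both combination and both RG3039 columns.

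**Figure D2:**
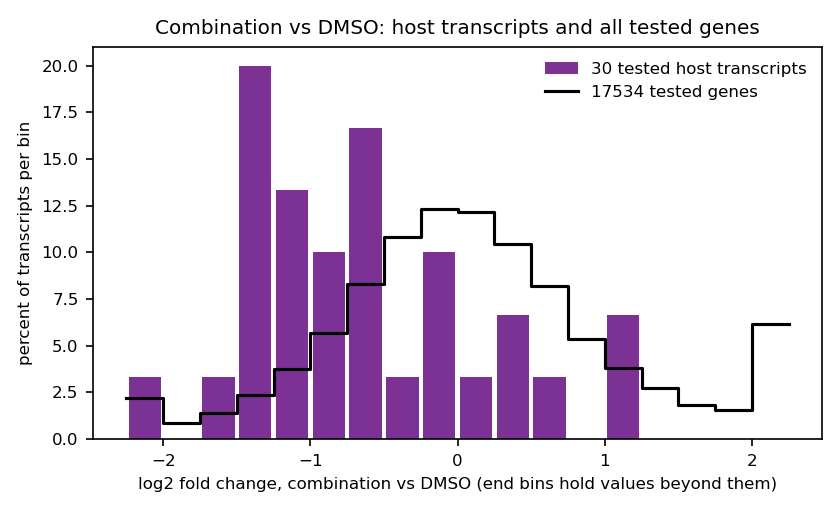
Distribution of the combination versus DMSO log2 fold change (x axis) in bins, as the percent of transcripts per bin (y axis), for the 30 host transcripts (bars) and all 17534 tested genes (line); the end bins hold values beyond them. The hosts have a median of -0.73 and all genes one of 0.04.

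Among the hosts that were lower in the combination, DANCR had the smallest scatter between duplicate libraries, with a residual SD of 0.0710 on the log2 scale. DANCR is a long noncoding RNA first described as holding epidermal progenitors in an undifferentiated state, and SNORA26 lies within it. It stood at 862 and 979 in combination libraries, 1459.7 and 1442 in decitabine libraries, 1599 and 1652 in RG3039 libraries, and 2065 and 2159.5 in DMSO libraries, so no pair of groups overlapped. Its log2 fold change in the combination against DMSO was -1.20 ± 0.15 (SE; adjusted p = 0.000574). DANCR was also the one host called in the combination against both single drugs, at -0.66 ± 0.15 against decitabine (adjusted p = 0.0276) and -0.82 ± 0.15 against RG3039 (adjusted p = 0.0272). Each of those 2 calls was lost when either library of either group compared was left out, with an adjusted p of 0.0908 to 0.189 against decitabine and 0.0953 to 0.224 against RG3039.

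TAF1D encodes a subunit of SL1, the factor that brings RNA polymerase I to ribosomal DNA, and 8 snoRNAs are annotated within the gene. Its values were 2831 and 2739 in combination libraries, 4255 and 4125 in decitabine libraries, 4307 and 3480.3 in RG3039 libraries, and 5358 and 6235 in DMSO libraries, with the combination lowest and DMSO highest in every library. The fold change against DMSO was -1.05 ± 0.15 for the combination (adjusted p = 0.00121). The calls for RG3039 against DMSO (-0.58 ± 0.15, adjusted p = 0.0469) and for the combination against decitabine (-0.59 ± 0.15, adjusted p = 0.0466) lay close to the threshold. Leaving out any 1 of the 8 libraries ended the RG3039 call, with an adjusted p of 0.0546 to 0.271. Leaving out any combination, decitabine or RG3039 library ended the other (0.0532 to 0.206).

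SNHG12, which hosts SNORA61, SNORA44, SNORA16A and SNORD99, separated the treatments into pairs. It measured 331 and 479.6 in combination libraries, 819 and 889 in decitabine libraries, 468 and 545 in RG3039 libraries, and 1013 and 1053 in DMSO libraries. The combination and RG3039 values overlapped, and both groups lay under every decitabine and DMSO value. The log2 fold change was -1.37 ± 0.21 for the combination against DMSO (adjusted p = 0.00188), -1.03 ± 0.21 for RG3039 against DMSO (adjusted p = 0.0191) and -1.10 ± 0.21 for the combination against decitabine (adjusted p = 0.0168). The RG3039 call was lost without any 1 RG3039 or DMSO library (adjusted p 0.0576 to 0.12), and the last call without the first combination library or either decitabine library (0.0738 to 0.122).

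SNHG7, host of the SNORA17 snoRNAs, had 1061 and 1065 in combination libraries, 1978 and 1609.7 in decitabine libraries, 2306 and 1536 in RG3039 libraries, and 2785 and 2640.5 in DMSO libraries. SNHG17, host of the SNORA71 family, had 718 and 934 in combination libraries, 1227 and 1370.0 in decitabine libraries, 1365 and 1536 in RG3039 libraries, and 1802 and 2329 in DMSO libraries. In both transcripts every combination value was under every value of the other groups, and every DMSO value was over them. The combination against DMSO gave -1.35 ± 0.20 for SNHG7 (adjusted p = 0.0016) and -1.32 ± 0.19 for SNHG17 (adjusted p = 0.0014).

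**Figure D3:**
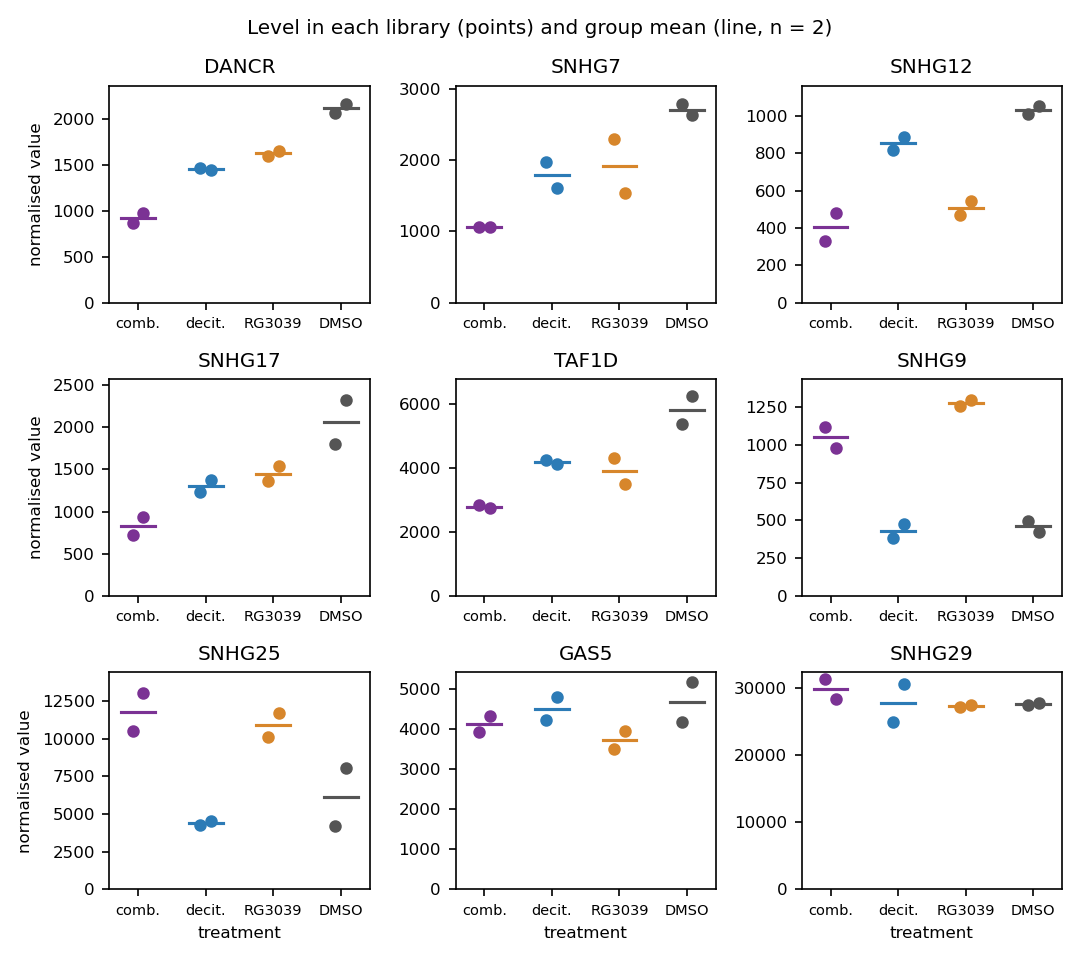
Normalised value (y axis, from 0) of 9 host transcripts in each library (points) with the group mean (line, n = 2), for the combination, decitabine, RG3039 and DMSO. DANCR, SNHG7, SNHG17 and TAF1D are lowest in the combination and highest in DMSO, SNHG9 is high in both groups that received RG3039, and the SNHG29 values of all groups lie between 24813 and 31285.

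A further 10 hosts fell in the combination against DMSO but lost the call when 1 or more libraries were left out. SNHG5, host of the SNORD50 snoRNAs, had 3853 and 4229.8 in combination libraries, 6523 and 5369 in decitabine libraries, 6087 and 4358 in RG3039 libraries, and 7244 and 7133 in DMSO libraries. SNHG32, a protein-coding host of SNORD48 and SNORD52, had 2939 and 2609.6 in combination libraries, 5601 and 3387 in decitabine libraries, 6131 and 3387 in RG3039 libraries, and 7789 and 6625 in DMSO libraries. Both had every combination value under the other groups, and the spread between duplicates was wide in the single-drug groups of SNHG32. Their fold changes against DMSO were -0.83 ± 0.18 (adjusted p = 0.00867) and -1.37 ± 0.29 (adjusted p = 0.00847). The SNHG5 call was lost without the first combination library (adjusted p = 0.0704) and the SNHG32 call without the second (adjusted p = 0.058).

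ZFAS1, antisense to the start of ZNFX1 and host of the SNORD12 family, measured 2249.8 and 1939.8 in combination libraries, 3794 and 2745 in decitabine libraries, 3618 and 2339 in RG3039 libraries, and 5481 and 3667 in DMSO libraries. SNHG1, the host of SNORD22 and SNORD25 to SNORD31 and a well-known NMD target, measured 2066 and 2091 in combination libraries, 2935 and 3180.4 in decitabine libraries, 2558 and 2884 in RG3039 libraries, and 3312 and 2836 in DMSO libraries. For SNHG1 the decitabine and RG3039 values each overlapped the DMSO values, and the combination pair lay under all of them. Fold changes in the combination against DMSO were -1.10 ± 0.26 for ZFAS1 (adjusted p = 0.0139) and -0.56 ± 0.15 for SNHG1 (adjusted p = 0.0215). Both calls were lost without either combination library or without the first DMSO library, at adjusted p values of 0.0527 to 0.088 for ZFAS1 and 0.0925 to 0.112 for SNHG1.

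SNHG3, host of the SNORA73 pair, varied most between duplicates, with a residual SD of 0.879 on the log2 scale. Its values were 832 and 408 in combination libraries, 517 and 2474 in decitabine libraries, 853 and 967 in RG3039 libraries, and 2387 and 2513 in DMSO libraries. One decitabine library was thus at the DMSO level and the other among the combination values. The combination fell by 2.07 ± 0.59 on the log2 scale against DMSO (adjusted p = 0.0306), and the call was lost without the second combination library or either DMSO library (0.0945 to 0.18). SNHG3 lies within the 5′ part of RCC1 on the same strand, so tags of the 2 genes may not be told apart; RCC1, the nucleotide exchange factor of RAN, was itself lower in the combination by -1.74 ± 0.30 (adjusted p = 0.0032).

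SNHG15, host of SNORA9, had 224 and 252 in combination libraries, 556 and 316 in decitabine libraries, 504 and 383 in RG3039 libraries, and 735 and 517 in DMSO libraries. SNHG4, host of the SNORA74 snoRNAs, had 153 and 175 in combination libraries, 314 and 291 in decitabine libraries, 367 and 297 in RG3039 libraries, and 327 and 392 in DMSO libraries. In SNHG4 the RG3039 values overlapped the DMSO values, the decitabine values lay just under them, and the combination pair was far below. The fold changes against DMSO were -1.37 ± 0.30 for SNHG15 (adjusted p = 0.0102) and -1.13 ± 0.23 for SNHG4 (adjusted p = 0.00762). SNHG15 lost the call without the first combination or the first DMSO library (0.0684 and 0.0652), and SNHG4 without the first combination or the second DMSO library (0.0589 and 0.0508). MATR3, which overlaps SNHG4 on the same strand, had no call.

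SNHG26, host of SNORD93, stood at 96.0 and 72.3 in combination libraries, 211 and 179.7 in decitabine libraries, 127 and 87.3 in RG3039 libraries, and 218 and 279 in DMSO libraries. Like SNHG12 it was low in both groups that received RG3039. It was lower by -1.56 ± 0.32 in the combination (adjusted p = 0.00701) and by -1.22 ± 0.32 in RG3039 (adjusted p = 0.0464) against DMSO, and by -1.22 ± 0.32 in the combination against decitabine (adjusted p = 0.0497). The first call was lost without the second combination or the second DMSO library (0.0548 and 0.053); the others were lost without any 1 of the 8 libraries (0.0656 to 0.236 and 0.0548 to 0.231).

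SNHG20, which holds SCARNA16, had 169 and 168 in combination libraries, 268 and 242 in decitabine libraries, 203 and 212 in RG3039 libraries, and 297 and 342 in DMSO libraries. SNHG19, which holds SNORD60, had 695 and 512 in combination libraries, 961 and 884 in decitabine libraries, 839.8 and 897 in RG3039 libraries, and 998 and 862 in DMSO libraries. The SNHG20 values formed 4 separate levels, whereas for SNHG19 the combination pair lay under 3 overlapping groups. The fold changes against DMSO were -0.92 ± 0.23 for SNHG20 (adjusted p = 0.0175) and -0.64 ± 0.20 for SNHG19 (adjusted p = 0.0422). SNHG20 lost the call without either combination library or the second DMSO library (0.0784 to 0.0917). The SNHG19 call remained only without the first combination library, and the other 7 omissions gave 0.0562 to 0.25.

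SNHG9 and SNHG25 went the other way and were high wherever RG3039 was present. SNHG9, host of SNORA78, measured 1118 and 981 in combination libraries, 380.5 and 477 in decitabine libraries, 1260.4 and 1298 in RG3039 libraries, and 495 and 426 in DMSO libraries. SNHG25, host of SNORD104 and SNORA50C, measured 10498 and 13085 in combination libraries, 4289 and 4533 in decitabine libraries, 10108 and 11732 in RG3039 libraries, and 4182 and 8071 in DMSO libraries. Decitabine values overlapped DMSO values in both transcripts, and the 4 libraries with RG3039 lay above the 4 without it.

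The SNHG9 fold changes were 1.19 ± 0.19 in the combination against DMSO (adjusted p = 0.00211), 1.48 ± 0.19 in RG3039 against DMSO (adjusted p = 0.002) and -1.58 ± 0.19 in decitabine against RG3039 (adjusted p = 0.00238), and these calls were made without each of the 8 libraries. SNHG9 also rose in the combination against decitabine, by 1.30 ± 0.19 (adjusted p = 0.00496), a call lost without the first combination library (adjusted p = 0.0559). SNHG25 rose by 1.01 ± 0.26 in the combination against DMSO (adjusted p = 0.021) and by 1.41 ± 0.26 against decitabine (adjusted p = 0.0138), and it fell by 1.30 ± 0.26 in decitabine against RG3039 (adjusted p = 0.0235). In RG3039 against DMSO SNHG25 gave 0.91 ± 0.26 with an adjusted p of 0.0682. The first of these was lost without either combination library or the first DMSO library (0.0563 to 0.129). The other 2 calls were lost without any 1 library of the groups compared (0.0608 to 0.107 and 0.091 to 0.133).

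SNHG11, host of SNORA60 and SNORA71E, had 572 and 497 in combination libraries, 302 and 325 in decitabine libraries, 491 and 566 in RG3039 libraries, and 429 and 399 in DMSO libraries. The decitabine pair was lowest. SNHG11 rose in the combination against decitabine by 0.76 ± 0.20 (adjusted p = 0.0479), and this call was lost without any 1 of the 8 libraries (0.0539 to 0.255).

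**Figure D4:**
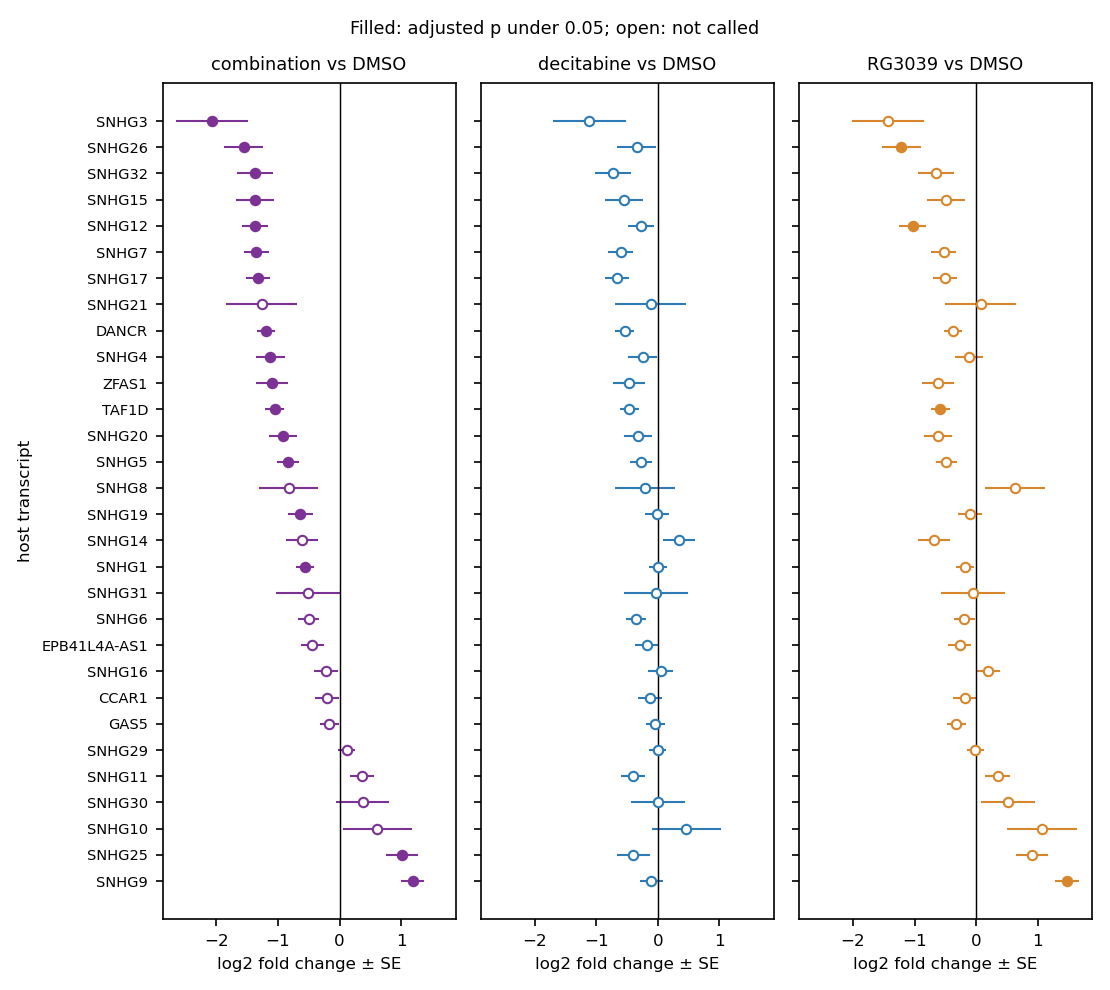
Log2 fold change (x axis, point, with its SE as a bar) of each tested host transcript (rows) in the combination, decitabine and RG3039 against DMSO; filled points have an adjusted p under 0.05 in limma. Filled points number 17 for the combination, 0 for decitabine and 4 for RG3039; the 3 panels share the DMSO libraries.

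Of the 8 hosts with the highest mean value, SNHG29, SNHG16, SNHG6, CCAR1 and SNHG8 had no call. SNHG29, annotated as LRRC75A-AS1 in GENCODE 29 and host of SNORD49 and SNORD65, had 31285 and 28266 in combination libraries, 24813 and 30524 in decitabine libraries, 27049.8 and 27355 in RG3039 libraries, and 27362 and 27664 in DMSO libraries. SNHG16, host of the SNORD1 snoRNAs, had 16324 and 13252 in combination libraries, 15265 and 20473 in decitabine libraries, 18828 and 20491 in RG3039 libraries, and 20274 and 14508 in DMSO libraries. Both SNHG29 combination values lay above both DMSO values, and the SNHG16 combination values overlapped the DMSO values but lay under both RG3039 values. The test gave 0.11 ± 0.14 for SNHG29 (adjusted p = 0.607) and -0.22 ± 0.20 for SNHG16 (adjusted p = 0.472) in the combination against DMSO, and -0.42 ± 0.20 for SNHG16 in the combination against RG3039 (adjusted p = 0.32).

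SNHG6, host of SNORD87, had 10244 and 10551 in combination libraries, 12295 and 10776 in decitabine libraries, 14862 and 11249 in RG3039 libraries, and 16256 and 13359 in DMSO libraries. Its combination values lay under all others, and the test against DMSO gave -0.50 ± 0.17 with an adjusted p of 0.0551. CCAR1, which encodes a coactivator of transcription and apoptosis signalling and holds SNORD98, had 7067 and 9200.4 in combination libraries, 7805 and 9263 in decitabine libraries, 7642 and 8798 in RG3039 libraries, and 7941 and 10909 in DMSO libraries, with all groups overlapping (-0.21 ± 0.19, adjusted p = 0.49). SNHG8, host of SNORA24, had 2793 and 2560.4 in combination libraries, 5762 and 2909 in decitabine libraries, 12453 and 4370.1 in RG3039 libraries, and 6626 and 3406 in DMSO libraries. Duplicates of SNHG8 differed widely in 3 groups, and the test in the combination against DMSO gave -0.83 ± 0.48 (adjusted p = 0.256).

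GAS5, named for its accumulation in growth-arrested cells and a long-studied host that NMD degrades, showed little spread between groups. It averaged 4132 ± 288 in combination libraries, 4513 ± 410.5 in decitabine libraries, 3724 ± 318 in RG3039 libraries, and 4668 ± 707 in DMSO libraries (SD, n = 2 each). Its log2 fold changes were -0.17 ± 0.16 in the combination (adjusted p = 0.482), -0.04 ± 0.16 in decitabine (adjusted p = 0.918) and -0.32 ± 0.16 in RG3039 (adjusted p = 0.259), each against DMSO. SNHG14, the imprinted Prader-Willi region transcript that runs antisense to UBE3A, averaged 1553 ± 585 in combination libraries, 2903 ± 244 in decitabine libraries, 1423 ± 213 in RG3039 libraries, and 2310.2 ± 529 in DMSO libraries (SD, n = 2 each). Decitabine against RG3039 gave 1.03 ± 0.26 for SNHG14, with an adjusted p of 0.0583. SNHG14 overlaps SNRPN on the same strand and UBE3A on the opposite strand, so tags of these genes may not be told apart. In the same contrast SNRPN gave 0.63 ± 0.21 (limma, adjusted p = 0.136).

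Of the remaining tested hosts, EPB41L4A-AS1, host of SNORA13, had values from 619 to 1037 over all 8 libraries and -0.45 ± 0.19 in the combination against DMSO (adjusted p = 0.118). SNHG10, which holds SCARNA13, ranged from 122 to 476 with both extremes in the decitabine pair. SNHG30 ranged from 90.1 to 228, SNHG21 from 27.7 to 136 and SNHG31 from 17.9 to 39.5, and none of the 3 had a call. In all, 18 of the 30 hosts had a call in at least 1 of the 7 contrasts and 12 in none. The matching share of all genes was not counted, and the combination against DMSO alone called 24.1% of them.

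Decitabine alone gave 0 host calls in limma, beside 2.14% of all genes called (1.74% higher and 0.405% lower). Unadjusted p values under 0.05 were found for 5 hosts (DANCR, SNHG17, TAF1D, SNHG7 and SNHG32), all with values below DMSO, and without the first DMSO library 1 host was called. The share of all genes at that unadjusted threshold was not counted, so the 5 hosts cannot be set against it. The median fold change of the 30 hosts was -0.26 and 25 of them were below 0. Over all genes the median was 0.01 and 49.1% were below 0. Both decitabine values lay under both DMSO values in 13 hosts (23.1% of all genes) and over them in 1 (23.7% of all genes).

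RG3039 alone gave 4 host calls of 30 beside 8.12% of all genes. SNHG9 was the one called higher (4.53% of all genes) and SNHG12, SNHG26 and TAF1D were called lower (3.59% of all genes). The host median was -0.23 and that of all genes -0.00. Both RG3039 values lay under both DMSO values in 16 hosts (26.1% of all genes) and over them in 4 (25.8% of all genes). The 4 calls became 1 without either RG3039 library or the first DMSO library, and 2 without either combination library or the second DMSO library.

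The combination against decitabine had 7 host calls beside 7.33% of all genes, with a host median of -0.59. SNHG9, SNHG11 and SNHG25 were higher (3.94% of all genes) and DANCR, SNHG12, SNHG26 and TAF1D lower (3.39% of all genes). Both combination values lay under both decitabine values in 19 hosts (27.3% of all genes) and over them in 3 (25.7% of all genes). The count of calls was 0 and 3 without the first and the second combination library, 2 and 1 without the first and the second decitabine library, and 4 with no filter on low values.

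The combination against RG3039 had 1 host call of 30, DANCR, beside 2.28% of all genes (1.49% higher and 0.787% lower), with a host median of -0.40. Both combination values lay under both RG3039 values in 18 hosts (25.0% of all genes) and over them in 1 (26.2% of all genes). Without either combination library or the first RG3039 library 0 hosts were called. Decitabine against RG3039 had SNHG9 and SNHG25, both lower with decitabine, which is 2 of 30 beside 4.60% of all genes (2.67% higher and 1.92% lower), and a host median of -0.02; 1 host was called without any 1 decitabine or RG3039 library. Both decitabine values lay under both RG3039 values in 4 hosts (23.8% of all genes) and over them in 7 (24.5% of all genes).

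The interaction term, which asks whether the combination differs from the sum of the 2 single-drug effects on the log2 scale, had no host call, and 0% of all genes were called in limma. Among the hosts 1 had an unadjusted p under 0.05, SNHG4 at -0.77 ± 0.33 (adjusted p = 0.859). The share of all genes at that unadjusted threshold was not counted. In 19 of the 30 hosts (63.3%) the combination mean was the lowest and the DMSO mean the highest of the 4 groups; this order held for 18.8% of all genes tested, and the opposite order was found in 0 hosts and 3055 genes. The 15 hosts called lower in the combination against DMSO, a choice that already sets the combination under DMSO, all had the combination lowest and DMSO highest, as did 83.1% of the 2222 genes called lower in that contrast.

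Summed over all 32 members, host transcripts made up 0.379% and 0.363% of the combination library totals, 0.396% and 0.394% of the decitabine totals, 0.442% and 0.397% of the RG3039 totals, and 0.438% and 0.395% of the DMSO totals. The DMSO pair overlapped both the RG3039 pair and the decitabine pair, and both combination shares lay under all others.

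The sequence around the annotated start was examined because a TOP tract is a known feature of this family. Start windows were available from RefSeq (GRCh38.p14) for 30 of the 34 names; SNHG6, SNHG9, SNHG15 and SNHG25 had no entry. A run of at least 5 pyrimidines, beginning with C and starting within 5 bases of the start site, was found in 14 of those 30 (46.7%), beside 21.1% of 35116 promoters in the table and 22.3% of promoters of tested genes. Windows of 15 bases before and 15 after the start site follow, 5′ to 3′ on the gene's strand with the run in capitals, for 8 hosts that fell in the combination.
SNHG12, chr1:28581859-28581888, minus strand: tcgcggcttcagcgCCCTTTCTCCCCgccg
SNHG4, chr5:139274086-139274115, plus strand: ctcggctcccggctgCCCTTTCCCCTCCgg
SNHG19, chr16:2155344-2155373, minus strand: ctcgcccgcccctgtCTTTTCggggtcgag
ZFAS1, chr20:49278627-49278656, plus strand: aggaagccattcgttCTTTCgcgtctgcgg
SNHG5, chr6:85678719-85678748, minus strand: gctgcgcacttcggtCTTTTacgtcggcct
SNHG7, chr9:136728170-136728199, minus strand: gcttcccttctcgtCCTCTgcgtgcgccgg
DANCR, chr4:52712379-52712408, plus strand: tcggctgcgcgccccgCCCTTgcccagagt
SNHG17, chr20:38435314-38435343, minus strand: ttgtcgtgtggcctcagtCCTTCgccgtcc

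Windows without such a run are shown for SNHG1 and SNHG26, which also fell in the combination, and for GAS5, which had no call.
SNHG1, chr11:62855871-62855900, minus strand: ccggggagattcgttctcatttttctactg
SNHG26, chr7:22854225-22854254, plus strand: ccttttaaacttgatctccgcagtgccctc
GAS5, chr1:173869031-173869060, minus strand: tgccatcatgaattcagatgtgtttatttt
Of 13 tested hosts with a run, 10 fell and 0 rose in the combination against DMSO, with a median log2 fold change of -1.10. Of 13 tested hosts without one, 4 fell and 0 rose, with a median of -0.45. Among the 4 with no entry, 1 fell and 2 rose. Of all tested genes with a promoter entry, 16.2% of 2494 with a run and 16.0% of 8592 without one were called lower, with medians of -0.04 and -0.03. The GAS5 window lies wholly outside the GENCODE 29 interval of GAS5 (chr1:173863900-173868882). The same holds for SNHG3 and SNHG14, which were also counted without a run, so these windows may not show the start of the transcript measured. These counts describe an annotated start, which need not be the start used in HL-60 cells, and the difference between the subsets was not tested. Only an unbroken run beginning with C near that start was counted. Hosts counted without a run, SNHG1 among them, are therefore not shown to lack a TOP tract.

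The hosts that rose were among the shortest genes. SNHG25 spans chr17:64145970-64146476 and SNHG9 chr16:1964959-1965509 (GENCODE 29, GRCh38), at 507 and 551 bases, followed by SNHG19 at 562 and SNHG8 at 1115. Of these 4 hosts with a span under 1200 bases, 2 rose and 1 fell in the combination against DMSO; of 26 longer hosts 0 rose and 14 fell. Several members also overlap a gene on the opposite strand (ZFAS1 and ZNFX1, SNHG10 and GLRX5, TAF1D and CEP295), and their tags may include the partner's, since no source used here says whether counting used strand.

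The snoRNAs themselves are short, lack a poly(A) tail and are poorly captured by such libraries. GENCODE 29 places 153 of them, scaRNA genes included, inside 32 of the 34 named hosts, and none inside GAS5 or SNHG27. Only snoRNA and scaRNA genes listed in that release on the host's strand were counted. The lack of an entry inside GAS5 therefore does not show that this long-studied host holds no snoRNA. Of the 153, 143 have a row of their own, 68 were above 0 in at least 1 library, and 9 had a mean of at least 10. SNHG14 holds 84. Of its SNORD116 copies 21 of 27 were above 0, and the summed SNORD116 value was 48.3 and 63.2 in combination libraries, 45.8 and 49.9 in decitabine libraries, 24.2 and 51.7 in RG3039 libraries, and 40.9 and 69.4 in DMSO libraries, with the groups overlapping. SNORD116-3 and SNORD116-5 had the same value in every library, as did SNORD116-14 and SNORD116-20, so copies may share tags. The copies above 0 were therefore not all detected separately. None of the 42 SNORD115 copies was above 0.

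The 5 snoRNAs whose values are set beside their hosts, of the 9 with a mean of at least 10, are shown next. They are as annotated in GENCODE 29 on GRCh38, 5′ to 3′. Capitals mark box C (TGATGA, searched in the first 20 bases) and box D (CTGA, in the last 20) of the C/D class, which guides methylation, and the ACA 3 bases from the end of the H/ACA class, which guides pseudouridylation.
SNORD26 in SNHG1, chr11:62855292-62855366, minus strand: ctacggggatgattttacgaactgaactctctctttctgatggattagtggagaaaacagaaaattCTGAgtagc
SNORD104 in SNHG25, chr17:64146083-64146152, plus strand: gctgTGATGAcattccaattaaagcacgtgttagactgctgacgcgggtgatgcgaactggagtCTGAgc
SNORA50C in SNHG25, chr17:64146339-64146471, plus strand: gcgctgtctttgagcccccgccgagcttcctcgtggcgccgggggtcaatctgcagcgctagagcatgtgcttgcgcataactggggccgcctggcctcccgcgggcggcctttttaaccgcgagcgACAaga
SNORA26 in DANCR, chr4:52713249-52713370, plus strand: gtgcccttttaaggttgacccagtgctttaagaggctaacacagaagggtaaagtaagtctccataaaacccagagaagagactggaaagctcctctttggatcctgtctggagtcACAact
SNORA24 in SNHG8, chr4:118279190-118279320, plus strand: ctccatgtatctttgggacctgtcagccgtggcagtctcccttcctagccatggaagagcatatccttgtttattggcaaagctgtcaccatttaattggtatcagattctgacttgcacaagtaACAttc
Of 278 annotated C/D sequences 69.1% held TGATGA and 95.7% held CTGA in those windows, and 76.2% of 147 H/ACA sequences ended in ACA and 3 further bases. SNORD26 holds CTGA but not TGATGA there.

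SNORD26 had 687 and 677 in combination libraries, 623 and 644 in decitabine libraries, 614 and 554 in RG3039 libraries, and 381 and 365 in DMSO libraries, with every treated library above both DMSO libraries. It rose by 0.87 ± 0.18 in the combination against DMSO (adjusted p = 0.00691), where its host SNHG1 fell by 0.56 ± 0.15 (adjusted p = 0.0215). Decitabine gave 0.76 ± 0.18 (adjusted p = 0.0625) and RG3039 0.64 ± 0.18 (adjusted p = 0.0564) against DMSO. The interval of SNORD26 lies inside an exon of an annotated SNHG1 transcript, so tags there may come from either RNA.

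SNORA26 had 9.99 and 6.32 in combination libraries, 51.2 and 28.1 in decitabine libraries, 12.1 and 21.5 in RG3039 libraries, and 52.2 and 58.9 in DMSO libraries. It fell by 2.65 ± 0.61 in the combination against DMSO (adjusted p = 0.0118), in the same direction as its host DANCR, from few tags. SNORA24 had 65.8 and 46.3 in combination libraries, 124 and 131 in decitabine libraries, 9.41 and 19.9 in RG3039 libraries, and 109.7 and 52.8 in DMSO libraries. It fell in RG3039 against DMSO by 2.39 ± 0.52 (adjusted p = 0.0225) and was higher in decitabine than in RG3039 by 3.12 ± 0.52 (adjusted p = 0.00967), while its host SNHG8 had no call in either. SNORA24 and SNORA50C, like SNORD26, lie inside an exon of an annotated host transcript, so the origin of their tags is equally uncertain. SNORD104 and SNORA50C, within SNHG25, gave 0.57 ± 0.34 (adjusted p = 0.264) and 0.24 ± 0.27 (adjusted p = 0.565) in the combination against DMSO. Of the 9 tested snoRNAs, only SNORD26 (higher) and SNORA26 (lower) were called in the combination against DMSO. Beside them, 24.1% of all genes tested were called in that contrast, 11.4% higher and 12.7% lower. The tested snoRNAs not shown had no call in any contrast. In the combination against DMSO they gave 1.97 ± 0.90 (SNORA71D in SNHG17), 0.80 ± 0.40 (SNORD87 in SNHG6), -1.15 ± 0.72 (SNORD6 in TAF1D) and -3.17 ± 1.88 (SNORA32 in TAF1D). The difference between a host and its snoRNA was not tested.

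**Figure D5:**
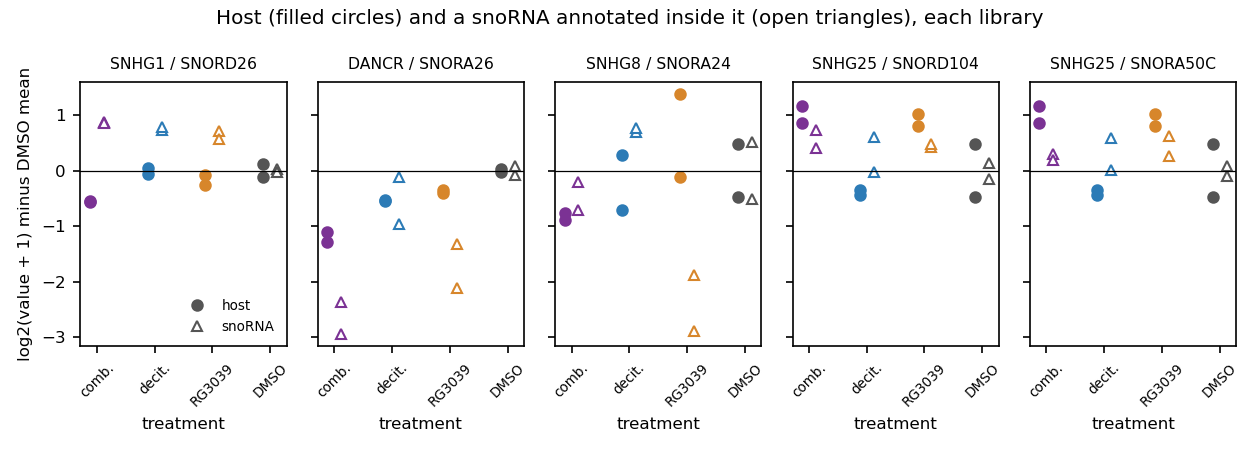
Level in each library, as log2(value + 1) minus the mean of the 2 DMSO libraries (y axis), of 4 hosts (filled circles) and 5 snoRNAs annotated inside them (open triangles), in the combination, decitabine, RG3039 and DMSO (x axis). SNORD26 lies above the DMSO mean in all treated libraries while SNHG1 lies below it in both combination libraries.

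Genes of related pathways were described from 5 further lists: NMD factors, NMD-limited coding transcripts, snoRNA particle components, other coding snoRNA hosts and TOP mRNAs. Of 21 NMD and exon junction complex factors, 4 fell (12.7% of all genes tested) and 1 rose (11.4% of all genes) in the combination against DMSO, with a list median of -0.26. The 5 calls of 21 are close to the 24.1% called among all genes. EIF4A3, the helicase that anchors the exon junction complex, gave -1.51 ± 0.24 (adjusted p = 0.00195), and GSPT1, the release factor eRF3a, gave -1.01 ± 0.15 (adjusted p = 0.00135). UPF1 and PNRC2, a decapping adaptor, also fell (-0.46 ± 0.13 and -0.58 ± 0.17), and SMG9, a partner of the SMG1 kinase, rose by 0.73 ± 0.22 (adjusted p 0.0298 for UPF1, 0.034 for PNRC2 and 0.0396 for SMG9). Decitabine and RG3039 alone had 0 calls among these 21.

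Of 11 coding transcripts known to be limited by NMD, 3 rose (11.4% of all genes tested) and 0 fell (12.7% of all genes) in the combination against DMSO, with a median of 0.40. They were SLC7A11, the cystine transporter (1.08 ± 0.18, adjusted p = 0.00235), ATF3, a stress-induced transcription factor (2.07 ± 0.43, adjusted p = 0.00746) and GADD45A, a DNA-damage and growth-arrest gene (0.70 ± 0.17, adjusted p = 0.015). RG3039 alone had 2 called higher (4.53% of all genes), SLC7A11 (1.39 ± 0.18, adjusted p = 0.00194) and GADD45A (0.69 ± 0.17, adjusted p = 0.0375), and decitabine alone 1 (1.74% of all genes), GADD45A (0.90 ± 0.17, adjusted p = 0.0303). All 3 genes also answer to stress pathways other than NMD.

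Of 19 transcripts that encode snoRNA particle core and assembly factors, 13 fell (12.7% of all genes tested) and 0 rose (11.4% of all genes) in the combination against DMSO, with a median of -0.84. FBL, DKC1, NOP10, ZNHIT3, PIH1D1 and RPAP3 had no call. NUFIP1, an assembly factor, gave -1.35 ± 0.18 (adjusted p = 0.00079), GAR1, an H/ACA core protein, -1.05 ± 0.14 (adjusted p = 0.000876) and NOP58, a C/D core protein, -1.11 ± 0.15 (adjusted p = 0.000979). Neither single drug had a call in this list, where decitabine had a median of -0.40 and RG3039 one of -0.31.

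Of 36 protein-coding snoRNA hosts outside the rule, 17 fell (12.7% of all genes tested) and 0 rose (11.4% of all genes) in the combination against DMSO, with a median of -0.45. CCT6A, a chaperonin subunit, gave -1.55 ± 0.15 (adjusted p = 0.000173) and HSPA8, the constitutive HSP70 chaperone, -1.19 ± 0.15 (adjusted p = 0.000611). RG3039 had 5 calls in this list (3.59% of all genes lower) and decitabine 1 (0.405% of all genes lower), all of them lower; CCT6A was among both, at -0.78 ± 0.15 with RG3039 (adjusted p = 0.0128) and -0.83 ± 0.15 with decitabine (adjusted p = 0.0253). Of 15 translation factors and other TOP mRNAs, 6 fell (12.7% of all genes tested) and 0 rose (11.4% of all genes) in the combination against DMSO (median -0.35), including NPM1, a nucleolar chaperone (-0.69 ± 0.12, adjusted p = 0.00308), and EEF1A1, an elongation factor (-1.39 ± 0.31, adjusted p = 0.0103), and neither single drug had a call. NOP56 and DKC1 are in both the particle and the coding-host list, and EEF1B2, RACK1 and EEF2 are in both the coding-host and the TOP list.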

How the data were processed

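Polyadenylated RNA of HL-60 cells was profiled with a 3′ tag kit in 8 libraries, 2 in each of 4 treatment groups taken from the labels. The authors deposited a signal per gene, read counts already normalised between libraries. The build was hg38, and DESeq2, limma, STAR, featureCounts and Salmon 1.2.1 are named in the submitters' processing notes; neither their roles nor a strand setting is given in the sources used here. Low values were divided by the value of 1 read (0.702 to 1.51). Whole numbers, within 0.02, resulted for 97.5% to 98.1% of them in genes with 1 transcript. The share was 32.5% to 43.1% in genes with at least 5 transcripts, as many hosts have, and 74.4% to 80.8% in all genes. No count model was therefore run. The depths are estimates from those steps, and precision is limited by n = 2.

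Values were tested as log2(value + 1) with limma 3.58.1 in R 4.3.3 (one fit over all 8 libraries with a mean-variance trend, genes with a mean of at least 10, 7 contrasts). Benjamini-Hochberg adjustment ran over all 17534 genes within a contrast, and a call is an adjusted p under 0.05. A fold change on this scale understates the change of low genes. Code was tested on simulated data. Members, lists and subsets were chosen with earlier results of these data known, so counts over them are descriptions. Values in every library are given for members called in any contrast and the 8 with the highest mean; from other lists those with the smallest p against DMSO are named, with others added after their values were seen. All 34 names were found in GENCODE 29 by identifier. Alternatives were other filters, pseudocounts, scaling, variance priors, a replicate block, and leaving out each library.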

Additional observations from a re-analysis of the deposited data

How the results depend on the processing

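Of 31 calls of a host in a contrast, 8 were made without each of the 8 libraries, 31 with TMM scaling, 31 with the replicate block and 13 without the mean-variance trend; 0 changed direction. Replicate numbers did not pair the libraries (correlations of deviations -0.08 to 0.16). With the block, host calls were 12 in the combination against decitabine and 4 against RG3039, and 688 genes were called in the combination against RG3039; other counts stayed within 1.5 times. Without the trend, host calls were 10 (combination against DMSO), 1 (RG3039 against DMSO), 1 (combination against decitabine), 0 (combination against RG3039) and 1 (decitabine against RG3039), and gene calls were 718 (RG3039 against DMSO), 210 (decitabine against DMSO), 432 (combination against decitabine), 147 (combination against RG3039) and 427 (decitabine against RG3039). With no filter on low values, 4 hosts were called in the combination against decitabine and 2 in RG3039 against DMSO, and 213 genes in the combination against RG3039 and 225 in decitabine against DMSO; more genes were then tested. A minimum mean of 50 gave 2 hosts in the combination against RG3039. Fits of only the groups compared, with fewer libraries, gave 2 hosts in RG3039 against DMSO and 0 in the combination against RG3039, and 481, 105 and 408 genes in RG3039 against DMSO, decitabine against DMSO and decitabine against RG3039; they give no interaction.

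Leaving out 1 library (a lone sample is then assumed to vary like the others) gave host calls of 10 to 17 (combination against DMSO), 0 to 1 (decitabine against DMSO), 1 to 3 (RG3039 against DMSO), 0 to 6 (combination against decitabine), 0 to 1 (combination against RG3039) and 1 to 3 (decitabine against RG3039). Gene calls in the same order were 2133 to 4075, 79 to 495, 496 to 1263, 305 to 1391, 21 to 454 and 283 to 887, and 0 to 2 for the interaction. Where no construction is named, the cause was not tested. Hosts and snoRNAs with few tags have wide errors at this depth.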
